A study of Mus musculus with 6 samples.

Results

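The 10 genes described here code for the proteins that carry the light-sensitive current of rods and cones and those that reset it: the cyclic nucleotide gated channel subunits Cnga1, Cngb1, Cnga3 and Cngb3, the membrane guanylate cyclases Gucy2e and Gucy2f, the cyclase activating proteins Guca1a and Guca1b, and the sodium, calcium and potassium exchangers Slc24a1 and Slc24a2. They were taken by symbol from the 32285 genes of the deposited files, and all 10 were found. They were chosen by what they code for, with earlier results of these data known. The retinas came from rd10 mice, in which every animal, saline controls included, carries the rd10 allele of Pde6b, so no retina here is a normal one. One eye of each mouse was injected into the vitreous at P18, with 20 ng of mouse IL-27 or with the phosphate-buffered vehicle (Saline), and retinas were collected at P20, giving 3 Saline libraries (numbered 1, 2 and 6) and 3 IL-27 libraries (numbered 4, 5 and 10) of single-nucleus RNA. Nothing in the labels says that the libraries are separate animals, so the p-values measure the spread between these libraries only.

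In darkness the outer segment of a photoreceptor holds cyclic GMP, which keeps the channel open and lets sodium and calcium in. The channel of rods is built of the alpha subunit from Cnga1 and the beta subunit from Cngb1, and that of cones of Cnga3 and Cngb3. Light activates phosphodiesterase, cyclic GMP falls, the channel closes and calcium drops because the exchangers still pump it out: Slc24a1 in rods and Slc24a2 in cones. Low calcium lets the proteins from Guca1a and Guca1b switch on the cyclases from Gucy2e and Gucy2f, which restore cyclic GMP. In rd10 mice the rod phosphodiesterase is impaired and rods die early, and cones are lost after them. Mouse Gucy2e is the counterpart of the human gene GUCY2D.

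After filtering and removal of doublets 52188 nuclei were left, 8238 to 9161 per library, with medians of 2782 to 3787 UMIs. Of these 15515 were rods and 3335 cones, and all 10 rod markers and all 8 cone markers, none of them a gene described here, were met in their clusters. The 10 genes were also left out of the genes that built the clusters. Pairs of libraries shared 18 to 30 barcodes. The rod share of the nuclei was 25.3, 31.6 and 23.8% in Saline 1, 2 and 6 and 32.7, 23.9 and 41.2% in IL-27 4, 5 and 10, and the two-sided exact permutation test gave p = 0.4, where 0.1 is the smallest p that 3 against 3 libraries allow. The cone share was 6.46, 6.12 and 5.98% and 7.61, 6.49 and 5.66% (p = 0.6, the same exact test). Library IL-27 5 stood apart in rod transcripts. The 10 rod markers together reached 224 CPM (a gene's UMIs scaled to the total of the summed counts) in its amacrine nuclei, against 371 to 571 CPM in those of the other libraries, and 3001 CPM in its cones against 4086 to 4469 CPM, where Sag, which cones express too, makes up most of the sum. In its rods they reached 10625 CPM against 12274 to 13614 CPM. The log2 fold changes of the 10 genes are therefore also given without it.

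Gene positions are from GENCODE M21 on GRCm38, since the sources used here name no build. The rod channel genes are Cnga1 (ENSMUSG00000067220, chr5:72603696-72644275, minus strand) and Cngb1 (ENSMUSG00000031789, chr8:95239045-95306585, minus). The cone channel genes are Cnga3 (ENSMUSG00000026114, chr1:37214434-37263384, plus) and Cngb3 (ENSMUSG00000056494, chr4:19280850-19510623, plus). The cyclases are Gucy2e (ENSMUSG00000020890, chr11:69218117-69237036, minus) and Gucy2f (ENSMUSG00000042282, chrX:142081160-142196931, minus). Guca1a (ENSMUSG00000023982, chr17:47394558-47400584, minus) and Guca1b (ENSMUSG00000023979, chr17:47385393-47392967, plus) lie tail to tail as direct neighbours. The exchangers are Slc24a1 (ENSMUSG00000034452, chr9:64922861-64951607, minus) and Slc24a2 (ENSMUSG00000037996, chr4:86983124-87230477, minus). Cnga1 and Cngb3 each overlap 1 annotated pseudogene on their own strand, and no gene of the annotation overlaps the other 8. UMIs from nuclei include intronic RNA and long genes collect more of it, so levels are compared for 1 gene between cells or groups. Where CPM of different genes stand side by side, their sizes are not to be read against each other.

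The promoters of these genes are shown because the genes differ in which photoreceptor holds them, in rods, in cones or in both, and the letters before their start sites can be set beside that. The RefSeq promoter table (GRCm38.p6) held 8 of the 10 genes, with 10 start sites. The 250 bases before each start were searched on both strands for TAATCC, a core of the sites bound by the photoreceptor factor CRX, and for TGCTGA, a core of the sites bound by the rod factor NRL. The letters TAATCC or their reverse complement were found in 5 of the 10 promoters, 1 each of Cnga1, Cngb1, Gucy2e, Gucy2f and Guca1a, against 6.25% of the 32851 promoters in the table. None of the 10 held TGCTGA or its reverse complement, which 16.1% of all promoters held. Cnga3, Slc24a1 and Slc24a2 held neither. The matches of Cngb1, Gucy2e, Gucy2f and Guca1a began at most 84 bases before the start site, and these promoters are printed 5′ to 3′ on the strand of the gene, with the matches in capitals. They are chr8:95306586-95306835, chr11:69237023-69237272, chrX:142196937-142197186 and chr17:47400607-47400856 in turn, all on the minus strand.
Cngb1: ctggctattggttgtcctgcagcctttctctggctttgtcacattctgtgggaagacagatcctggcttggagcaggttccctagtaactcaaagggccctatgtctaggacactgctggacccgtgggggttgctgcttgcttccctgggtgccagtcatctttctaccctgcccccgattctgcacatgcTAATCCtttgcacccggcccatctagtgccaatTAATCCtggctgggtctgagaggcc
Gucy2e: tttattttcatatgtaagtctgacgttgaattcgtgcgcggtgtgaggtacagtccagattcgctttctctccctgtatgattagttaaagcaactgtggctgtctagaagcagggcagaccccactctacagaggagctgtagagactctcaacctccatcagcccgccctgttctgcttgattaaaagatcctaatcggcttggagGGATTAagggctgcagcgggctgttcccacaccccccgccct
Gucy2f: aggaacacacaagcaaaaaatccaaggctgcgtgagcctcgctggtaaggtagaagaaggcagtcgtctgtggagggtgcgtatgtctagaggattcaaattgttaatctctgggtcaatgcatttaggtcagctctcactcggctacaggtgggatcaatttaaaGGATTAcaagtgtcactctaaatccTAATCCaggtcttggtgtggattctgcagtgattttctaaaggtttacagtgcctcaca
Guca1a: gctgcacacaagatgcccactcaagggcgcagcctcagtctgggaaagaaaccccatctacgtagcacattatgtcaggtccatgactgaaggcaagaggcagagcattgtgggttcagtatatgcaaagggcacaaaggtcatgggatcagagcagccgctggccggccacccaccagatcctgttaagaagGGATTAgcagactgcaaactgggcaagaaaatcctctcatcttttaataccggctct
Cngb1 and Gucy2f held 2 matches each and Gucy2e and Guca1a 1 each, all without a test, and a match is a run of letters and not a shown binding site.

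Between rods and cones the channel subunits divided, the rod pair higher in rods and the cone pair higher in cones. Their levels in bipolar and other cells are given further below. Cnga1 stood at 670 ± 48.1 CPM in rods and 58.4 ± 15.6 CPM in cones (SD, n = 6 libraries each, as for all levels by cell type), and its rod level was 12.1 ± 2.95 times its cone level. Cngb1 stood at 479 ± 28.4 CPM in rods and 31.0 ± 10.5 CPM in cones. In every library both rod subunits were higher in rods. These levels leave out nuclei of outlying depth, and over all nuclei of the clusters, a setting added after the data were seen, the cone levels were higher, at 88.6 ± 37.0 CPM for Cnga1 and 58.4 ± 35.6 CPM for Cngb1. The cone alpha subunit Cnga3 showed the mirror image, with 158 ± 21.5 CPM in cones and 2.23 ± 0.912 CPM in rods. Cngb3 reached 3611 ± 681 CPM in cones and 17.8 ± 4.81 CPM in rods, a ratio of 211 ± 41.3. After each nucleus was thinned to 1000 UMIs, which left out 4216 rods and 56 cones of lower depth, 89.6% of cones held a UMI of Cngb3 (95% exact Clopper-Pearson interval 88.5 to 90.6%, counting error only) against 1.24% of rods (1.04 to 1.46%). For Cnga1 the thinned share was 47.3% of rods (46.4 to 48.2%) and 5.09% of cones (4.37 to 5.90%), and in amacrine cells, which should lack it, 1.56% (1.33 to 1.81%). Before thinning the shares for Cnga1 were 54.7, 12.6 and 8.08% at median depths of 1266, 2549 and 5702.5 UMIs in rods, cones and amacrine cells, and those for Cngb3 96.3% of cones and 1.95% of rods.

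The cyclases differed from each other in this respect. Gucy2e was shared by both photoreceptors, at 139 ± 6.32 CPM in rods and 96.0 ± 11.6 CPM in cones, with the cone level at 68.9% of the rod level. Gucy2f, by contrast, stood at 339 ± 22.8 CPM in rods and 21.2 ± 8.72 CPM in cones, or 6.26% of the rod level. Over all nuclei of the cone cluster it was 40.4 ± 21.1 CPM, or 11.8%, and ran from 22.3 to 76.3 CPM over the libraries. The activating proteins were present in both cell types. Guca1a was higher in cones in 6 of 6 libraries, at 216 ± 44.1 CPM against 149 ± 25.7 CPM in rods, and Guca1b was higher in rods in 6 of 6, at 342 ± 51.1 CPM against 198 ± 40.5 CPM. The exchangers divided as the channels did. Slc24a1 stood at 330.4 ± 20.0 CPM in rods and 31.7 ± 10.3 CPM in cones (47.2 ± 20.0 CPM over all nuclei), and Slc24a2 at 19.0 ± 1.57 CPM in rods and 1482 ± 138 CPM in cones. These differences between cell types describe clustered nuclei and carry no test.

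**Figure D1:**
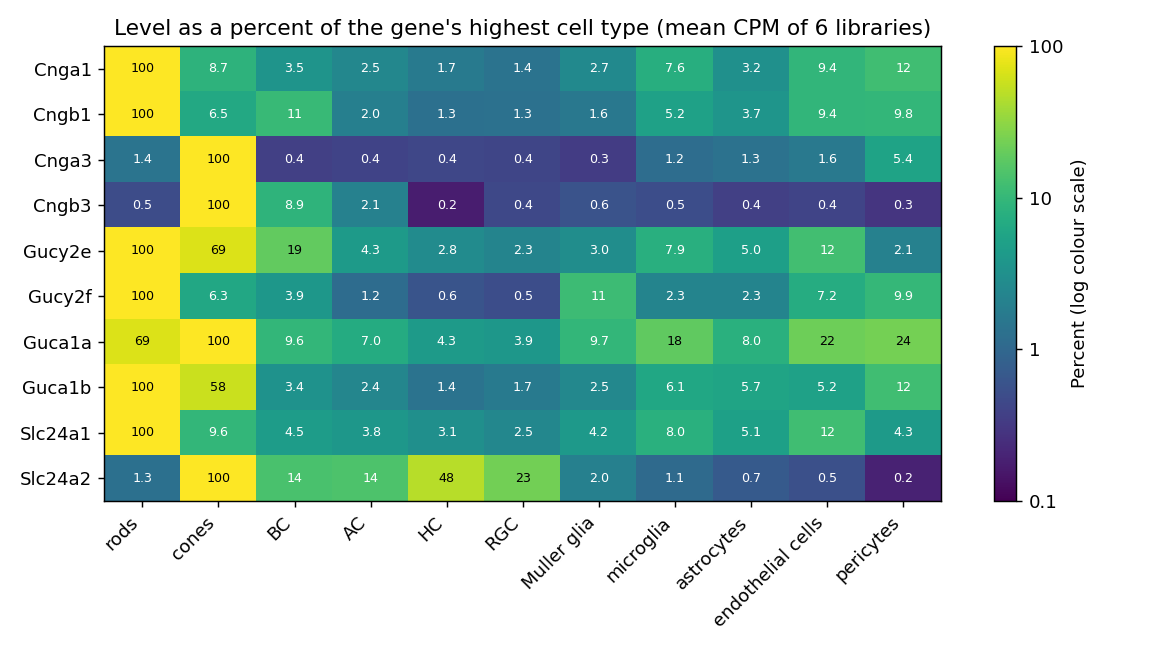
Level of each of the 10 genes in 11 cell types, as a percent of the gene's highest type (mean CPM of 6 libraries), on a log colour scale. Cnga1, Cngb1, Gucy2f and Slc24a1 were highest in rods and below 10% of that level in cones (11.8 to 14.4% when nuclei of outlying depth are kept), Cnga3, Cngb3 and Slc24a2 were highest in cones and below 2% in rods, and Gucy2e, Guca1a and Guca1b stood above 50% in both.

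UMIs of rod genes were found in all cell types, so each level outside rods was set beside the rod markers Gnat1, Pde6a, Sag and Nrl in the same cells. In cones these markers stood at 7.83 to 61.9% of their rod levels, and the highest of them was Sag, an arrestin that cones are known to express too. Cnga1 (8.72%), Slc24a1 (9.58%), Cngb1 (6.46%) and Gucy2f (6.26%) lay near or below the low end of this range, while Gucy2e at 68.9% and Guca1a at 145% lay above it and Guca1b at 58.0% just inside its top. Over all nuclei of both clusters the markers stood at 13.3 to 64.7%, with Gucy2f at 11.8%, Cngb1 at 12.0%, Cnga1 at 13.3% and Slc24a1 at 14.4%. The cone levels of Cnga1, Cngb1, Gucy2f and Slc24a1 are therefore not separated from rod RNA. In amacrine cells the markers stood at 1.61 to 5.06%, with Cnga1 at 2.47%, Cngb1 at 1.97%, Gucy2e at 4.28% and Slc24a1 at 3.84%, all inside that range, and Gucy2f below it at 1.16%. Guca1a lay above the range of the markers in 6 of the 6 other cell types plotted here, at 10.1% in amacrine cells and 26.7% in microglia. Its levels there were 8.43 to 39.8 CPM, against 216 CPM in cones. The markers gauge rod RNA only, while Guca1a was higher in cones than in rods. The part of cone RNA in these levels was not tested.

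**Figure D2:**
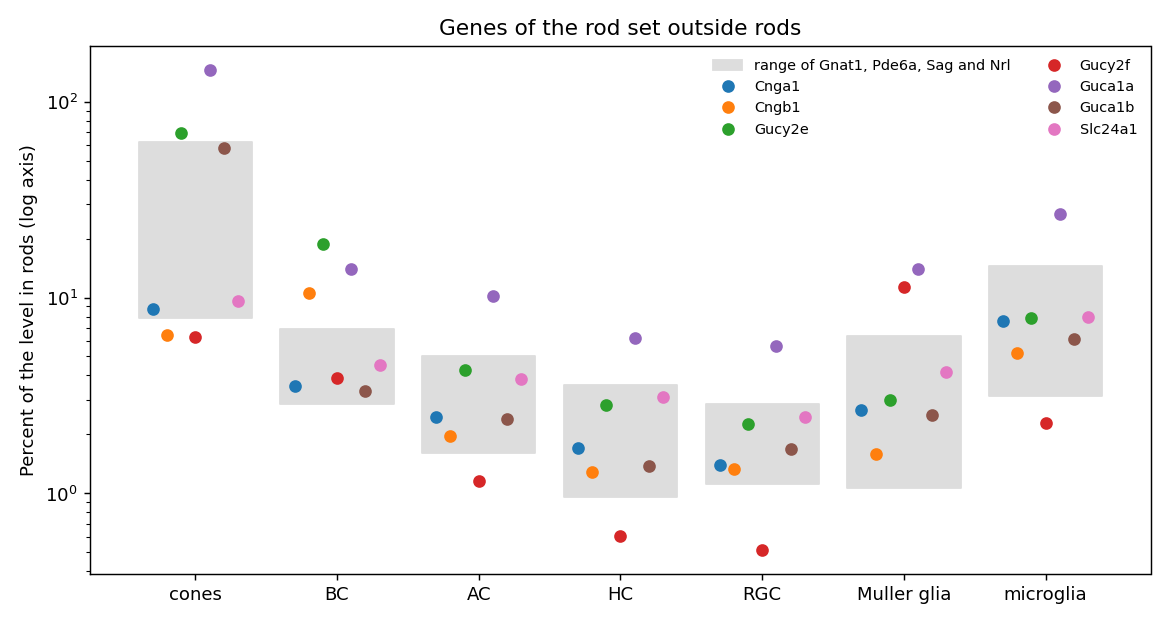
Level of 7 genes outside rods as a percent of their level in rods (log axis), in cones and 6 other cell types. The grey blocks give the range of the 4 rod markers, which gauge rod RNA and not cone RNA. Points above a block are Gucy2e and Guca1a in cones, Cngb1, Gucy2e and Guca1a in bipolar cells (BC), Gucy2f and Guca1a in Muller glia, and Guca1a in the other types.

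Bipolar cells (BC), the interneurons that receive the photoreceptor signal, held several of these genes above that background. Over all BC, Cngb1 was at 50.4 CPM, or 10.5% of its rod level, and Gucy2e at 26.2 CPM, or 18.8%, against 2.86 to 6.88% for the rod markers. Cngb3 was at 321 CPM in BC and 75.1 CPM in amacrine cells (AC), while rods held 17.8 CPM. The levels differed between the 9 BC clusters. Clusters are given by their numbers and leading genes, were picked after their values were seen, and have their levels taken over all their nuclei. Cluster 15 (998 nuclei, led by Gabrr3, Malrd1 and Fer1l6) held Cngb3 at 2070 ± 352 CPM, with 2035, 2000 and 2181 CPM in Saline 1, 2 and 6 and 2615, 2070 and 1520 CPM in IL-27 4, 5 and 10. It was present at this order of magnitude in every library. Cluster 12 (1067 nuclei, led by Grik1, Otor and Barx2) held Cngb3 at 915 ± 164 CPM, and in the other 7 BC clusters the mean lay between 6.50 and 237 CPM. Among AC clusters the highest was cluster 17, at 246 ± 19.9 CPM.

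The cyclases followed part of this pattern. Gucy2e stood at 79.0 ± 5.98 CPM in cluster 12 and 85.3 ± 10.5 CPM in cluster 15, against 96.2 ± 12.8 CPM over all nuclei of the cone cluster, and Gucy2f stood at 80.8 ± 8.11 CPM in cluster 12, against 40.4 ± 21.1 CPM in the cone cluster on the same basis. In cluster 12 Gucy2f was 73.8, 74.4 and 88.4 CPM in the Saline libraries and 79.2, 93.2 and 75.7 CPM in the IL-27 libraries, and the cone cluster reached 76.3 CPM in Saline 6, so the ranges overlapped. Cnga1 stood at 24.3 ± 5.84 CPM in the same nuclei of cluster 12. As a percent of its level in the rod cluster, Gucy2e lay above the range of the rod markers in clusters 12 and 15, and also in clusters 8, 13 and 25. Cngb1 lay above that range in a partly different set of BC clusters. In clusters 3 and 8 it stood at 44.5 and 43.5 CPM, or 9.17 and 8.96% of its level in the rod cluster, against 2.55 to 6.38% and 2.95 to 5.01% for the rod markers. In cluster 10 it stood at 42.4 CPM, or 8.74%, inside the marker range of 6.95 to 9.79%, and is not separated from rod RNA there. It was highest in cluster 25 (527 nuclei, led by 1700041M19Rik, Igfn1 and Gnat3), at 132 ± 19.5 CPM, then in cluster 13, at 99.7 ± 14.4 CPM, and cluster 15, at 75.4 ± 18.3 CPM, each above the marker range of its cluster, and it was lowest in cluster 24, at 10.2 ± 3.53 CPM. In cluster 25 it ran from 112 to 168 CPM over the 6 libraries, and in cluster 24 from 4.85 to 14.4 CPM, so the ranges did not overlap. Cnga3, the usual partner of Cngb3, stayed at 0 to 1.69 CPM in the BC clusters, and Cnga1, the usual partner of Cngb1, at 17.3 to 51.7 CPM. As a percent of the rod cluster, Cnga1 lay inside or below the marker range in every BC cluster. It is not separated from rod RNA there.

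**Figure D3:**
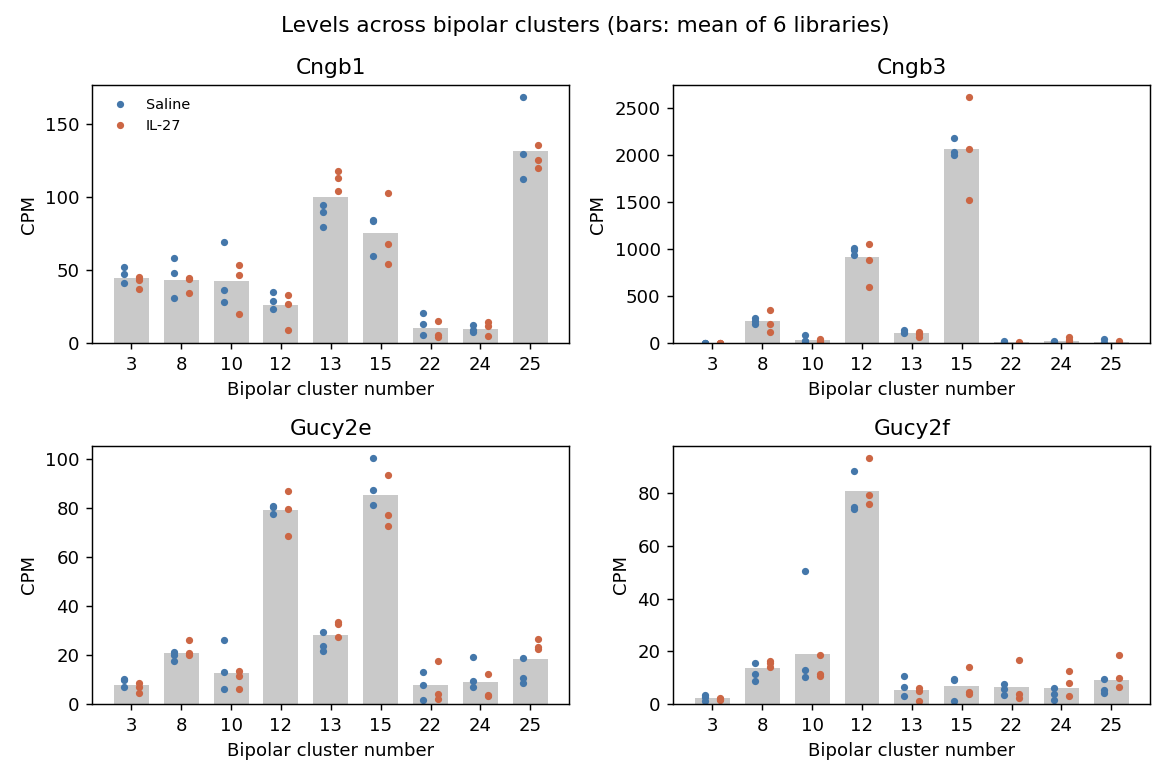
Levels of Cngb1, Cngb3, Gucy2e and Gucy2f in 9 BC clusters. Bars give the mean CPM of 6 libraries and points the single libraries. Cngb3 was highest in clusters 15 and 12, Gucy2f in cluster 12, Gucy2e in clusters 12 and 15 and Cngb1 in cluster 25.

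Muller glia, the radial glia of the retina, held Gucy2f at 38.5 ± 7.78 CPM. The Saline libraries were at 38.7, 33.5 and 35.3 CPM and the IL-27 libraries at 45.4, 28.6 and 49.5 CPM, and all 6 were below the rod range of 298 to 366 CPM. This was 11.4% of the rod level, against 1.06 to 6.39% for the rod markers and 2.67% for Cnga1 in the same nuclei. With thinning to 1000 UMIs 3.49% of Muller glia (2.99 to 4.05%, same interval) held a UMI of Gucy2f, against 0.400% of AC (0.291 to 0.537%). Before thinning the shares were 13.0% and 1.996%, at median depths of 4428 and 5702.5 UMIs.

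Slc24a2, the cone exchanger, was the most widely shared of the 10 genes among neurons. Its order was cones, horizontal cells (HC) at 713 ± 57.3 CPM, retinal ganglion cells (RGC) at 338 ± 17.0 CPM, AC at 214 ± 14.0 CPM and BC at 203 ± 12.6 CPM. From cones to AC the ranges over the 6 libraries did not overlap, while those of AC and BC did. HC nuclei held a UMI of Slc24a2 in 97.0% of cases before thinning and 46.8% after it (42.3 to 51.3%), where cones held it in 73.4%. Within AC it ran from 6.35 CPM in cluster 19, with Chat, the enzyme of acetylcholine synthesis, among its leading genes, to 1015 ± 70.2 CPM in cluster 11, and within BC from 6.59 CPM in cluster 3, with Prkca, a marker of rod bipolar cells, among its leading genes, to 960 ± 38.6 CPM in cluster 13. In glia, microglia and vessel cells it stood at 2.90 to 30.03 CPM, against 19.0 CPM in rods. The lowest of these, in pericytes, rests on 1 UMI. Over all nuclei of the pericyte cluster Slc24a2 was at 74.4 ± 136 CPM, with 348 CPM in IL-27 5.

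By their profile over 11 cell types, with 17344 genes compared, the genes most like Cnga1 were Pde6b (Pearson r = 0.993) and Nr2e3 (0.992). Guca1b was most like Samd7 (0.997) and Gm44196 (0.993), Gucy2e most like Rd3 (0.984) and Xrra1 (0.969), Guca1a most like Aipl1 (0.981) and Rbp3 (0.979) and Slc24a1 most like Gnat1 (0.967) and Slc22a29 (0.966). Rd3 codes for a protein that binds the cyclases and Aipl1 for a chaperone of phosphodiesterase. Cngb1 was most like Ebpl (0.975) and A930006I01Rik (0.974), Cngb3 most like Gm16758 (0.972) and Gm48607 (0.968), Gucy2f most like Top2b (0.933) and Wwox (0.929), and Slc24a2 most like 9330182L06Rik (0.937) and Gm3693 (0.916). Opn1mw, the medium wavelength opsin, was among the 2 genes most like Cnga3 (0.955). The points are cell types from the same 6 libraries and share their free RNA, and the correlations describe these profiles only.

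The comparison of IL-27 with saline asked whether the injection moved these genes within 2 days. No member passed the test in any cell type. The level in each library, the fitted log2 fold change (log2FC, IL-27 over Saline, with its standard error) and the edgeR quasi-likelihood result are given first for rods. Of all 13224 genes tested in rods 0.00756% passed an adjusted p of 0.05, and 9 of the 10 members were tested, 3 with a positive and 6 with a negative log2FC, each at an adjusted p of 0.9999 by edgeR. Their median log2FC was -0.093 against 0.0028 for all genes tested. Cnga3, with 42 UMIs in all rods, was below the filter, at 1.03, 1.21 and 3.21 CPM in Saline 1, 2 and 6 and 2.32, 2.92 and 2.70 CPM in IL-27 4, 5 and 10.

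In rods, Cnga1 was 736, 690.3 and 651 CPM in Saline 1, 2 and 6 and 688, 593 and 660 CPM in IL-27 4, 5 and 10. The groups overlapped, and the log2FC was -0.093 ± 0.093, or -0.036 without IL-27 5. Cngb1 was 508, 488 and 438 CPM with saline and 511, 458 and 473 CPM with IL-27. Its groups overlapped too, with a log2FC of 0.012 ± 0.095 (0.044 without IL-27 5). For both subunits of the rod channel the fitted change was therefore no larger than its standard error. Cngb3, the cone subunit, was 17.9, 14.2 and 17.3 CPM with saline and 21.4, 24.6 and 11.3 CPM with IL-27, with the lowest and highest values both in IL-27 libraries (log2FC 0.18 ± 0.26, and -0.026 without IL-27 5). In rods Cngb3 stood at 0.492%, Slc24a2 at 1.28% and Cnga3 at 1.42% of their cone levels. The cone markers stood at 0.799 to 69.4% of theirs, among them Arr3 at 0.799%, Pde6c at 1.001% and Opn1mw at 1.35%. The rod levels of Cngb3, Slc24a2 and Cnga3 are therefore not separated from cone RNA.

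Gucy2e in rods was 133, 144 and 140 CPM with saline (Saline 1, 2 and 6) and 147, 141 and 131 CPM with IL-27 (IL-27 4, 5 and 10), for a log2FC of 0.011 ± 0.10 (0.0020 without IL-27 5). Gucy2f was 341, 338 and 339 CPM with saline and 366, 351 and 298 CPM with IL-27, for a log2FC of -0.0019 ± 0.10 (-0.030 without IL-27 5). The saline libraries lay inside the spread of the IL-27 libraries for both cyclases. Guca1a was 162, 143 and 163 CPM with saline and 148, 102 and 176 CPM with IL-27, and the lowest value, in IL-27 5, made the log2FC -0.12 ± 0.15, against 0.060 without that library. Guca1b, the activating protein with the smallest unadjusted p in rods, was 393, 347 and 372 CPM with saline and 343, 245 and 350.3 CPM with IL-27. Its groups overlapped between 347 and 350.3 CPM, the log2FC was -0.24 ± 0.12 (edgeR, unadjusted p = 0.074, adjusted p = 0.9999), and it was -0.095 without IL-27 5. The 10 rod markers were lowest in the rods of IL-27 5 too, and whether this bears on its low Guca1a and Guca1b was not tested.

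Slc24a1 was the only member in rods whose groups did not overlap, at 356, 336 and 334.1 CPM with saline and 333.2, 295 and 329 CPM with IL-27. The nearest libraries of the groups, at 334.1 and 333.2 CPM, were almost equal, and the log2FC was -0.095 ± 0.094 and -0.045 without IL-27 5. Of all genes tested in rods 4.38% had all IL-27 libraries below all Saline libraries and 3.94% the reverse, and a single member of 9 is too few to be set apart from that background. Slc24a2, not separated from cone RNA in rods, was 21.3, 18.1 and 20.1 CPM with saline and 16.8, 19.2 and 18.7 CPM with IL-27 (log2FC -0.12 ± 0.17, and -0.15 without IL-27 5). At an unadjusted p of 0.05 by edgeR, 3.41% of all genes and none of the 9 members passed.

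**Figure D4:**
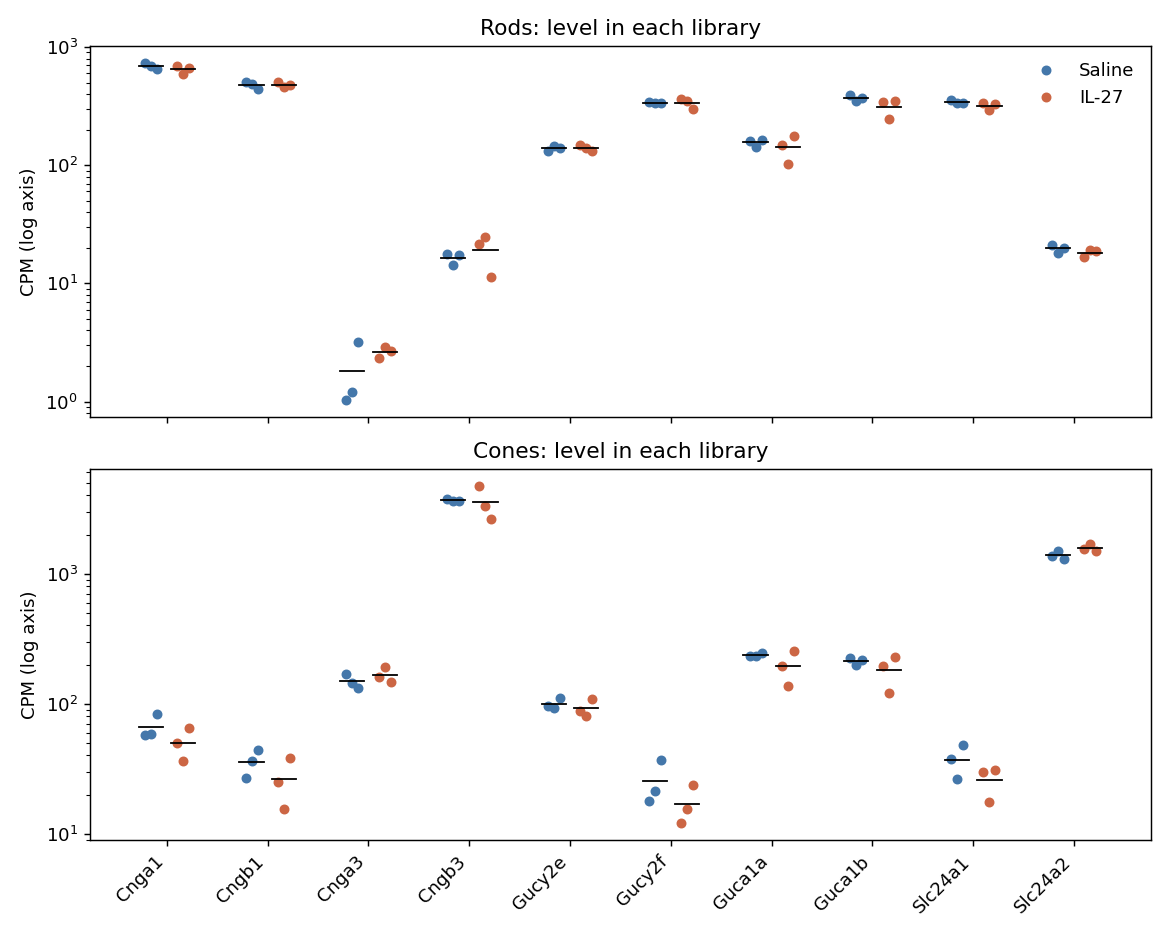
Level of each gene in each library in rods (top) and cones (bottom), in CPM on a log axis, with Saline libraries in blue, IL-27 libraries in orange and black lines at the group means. The groups overlap for every gene except Slc24a1 in rods, where the nearest libraries stand at 334.1 and 333.2 CPM.

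In cones all 10 members passed the filter, 2 with a positive and 8 with a negative log2FC, and their median was -0.26 against -0.00022 for all 10716 genes tested. No member passed the test by edgeR (adjusted p of 0.999 for each), where 0% of all genes did. The genes that belong to cones in these data lay on both sides. Cnga3 was 171, 146 and 131 CPM in Saline 1, 2 and 6 and 160, 192 and 146 CPM in IL-27 4, 5 and 10, with a log2FC of 0.16 ± 0.14. It was 0.036 without IL-27 5, the highest library, and 0.082 without Saline 6, the lowest. Cngb3 was 3741, 3636 and 3621 CPM with saline and 4728, 3309 and 2629 CPM with IL-27, so the saline libraries were nearly equal and the IL-27 libraries spread to both sides of them (log2FC -0.035 ± 0.17, and 0.013 without IL-27 5). Slc24a2 was 1367, 1493 and 1301 CPM with saline and 1549, 1693 and 1491 CPM with IL-27. Only Saline 2 and IL-27 10, at 1493 and 1491 CPM, kept these groups from separating, and the log2FC was 0.19 ± 0.13 (edgeR, unadjusted p = 0.15, adjusted p = 0.999), or 0.13 without IL-27 5.

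The genes expressed in both photoreceptors had negative log2FC in cones. Gucy2e was 96.1, 92.3 and 111 CPM in Saline 1, 2 and 6 and 88.4, 80.4 and 108 CPM in IL-27 4, 5 and 10 (log2FC -0.11 ± 0.14). Guca1a was 232, 233 and 245 CPM with saline and 195, 136 and 256 CPM with IL-27, with both the lowest and the highest library in the IL-27 group (-0.28 ± 0.16). Guca1b was 227, 199.5 and 218 CPM with saline and 195, 120.3 and 228 CPM with IL-27 (-0.25 ± 0.16). For all 3 the lowest library was IL-27 5, and without it the log2FC was -0.029 for Gucy2e, -0.077 for Guca1a and -0.027 for Guca1b. Without Saline 6 it was -0.025 for Gucy2e. Without IL-27 10, the highest IL-27 library for all 3, the values moved the other way, to -0.20 for Gucy2e, -0.48 for Guca1a and -0.41 for Guca1b.

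The rod genes in cones, whose level is not separated from rod RNA, had the most negative values of the 10. Cnga1 was 57.3, 58.9 and 83.2 CPM in Saline 1, 2 and 6 and 50.2, 36.2 and 64.6 CPM in IL-27 4, 5 and 10 (log2FC -0.40 ± 0.20). Cngb1 was 26.7, 36.2 and 44.0 CPM with saline and 24.8, 15.5 and 38.6 CPM with IL-27 (-0.44 ± 0.26). Saline 6 was the highest library for both, and IL-27 5 the lowest. Gucy2f was 17.8, 21.3 and 36.9 CPM with saline and 12.1, 15.5 and 23.6 CPM with IL-27 (-0.57 ± 0.30), and Slc24a1 was 37.6, 26.3 and 47.9 CPM with saline and 29.9, 17.7 and 30.7 CPM with IL-27 (-0.50 ± 0.24). Without IL-27 5 these became -0.21 for Cnga1, -0.18 for Cngb1, -0.52 for Gucy2f and -0.29 for Slc24a1. Without Saline 6 they were -0.20, -0.26, -0.21 and -0.28 in the same order, without doublet removal -0.23, -0.28, -0.18 and -0.31, and with nuclei of outlying depth kept -0.59, -0.68, -0.66 and -0.66. With another single library left out, Gucy2f ran from -0.83 (without IL-27 10) to -0.36 (without IL-27 4). The 10 rod markers in cones were lowest in IL-27 5 too, and the part of free rod RNA in these values was not tested beyond a fit with the rod marker level in AC as a covariate, which gave -0.36, -0.40, -0.55 and -0.46 in the same order. In cones, 4.8% of all genes had all IL-27 libraries below all Saline libraries and 4.17% all above, with none of the 10 members in either group, and 3.61% of all genes but none of the members had an unadjusted p below 0.05 by edgeR.

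**Figure D5:**
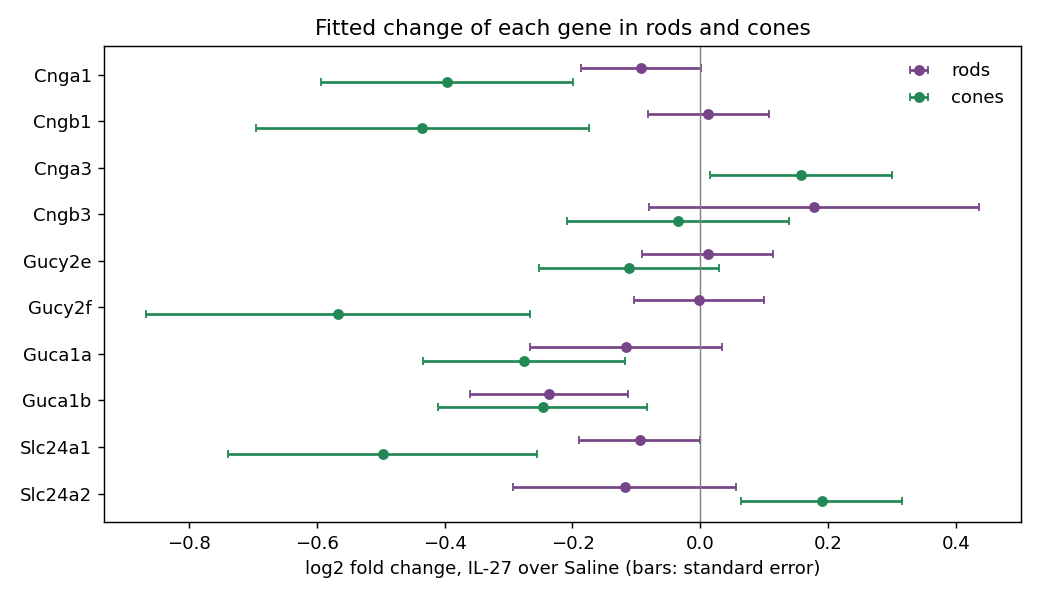
Fitted log2FC of IL-27 over Saline for each gene in rods (purple) and cones (green), with bars of 1 standard error. In rods 9 genes lie between -0.24 and 0.18, and in cones 10 genes lie between -0.57 and 0.19, with Cnga3 and Slc24a2 on the positive side.

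Whether IL-27 moved a gene differently in cones than in rods was tested as an interaction of cell type and treatment over the 12 rod and cone sums, with the library as a block. Of 12915 genes 0.0387% passed an adjusted p of 0.05, and none of the 10 members did (edgeR adjusted p of 0.99997 for each). The cone effect minus the rod effect was lowest for Gucy2f, at -0.56 ± 0.27 on the log2 scale (edgeR, unadjusted p = 0.044, the 1 member below 0.05, where 4.07% of all genes were), then Cnga3 at -0.48 ± 0.45, Cngb1 at -0.45 ± 0.23 and Slc24a1 at -0.40 ± 0.21. It was 0.28 ± 0.17 for Slc24a2, the only positive one, and -0.017 ± 0.11 for Guca1b, the one nearest to 0. With a library left out the difference ran from -0.92 (without IL-27 10) to -0.23 (without Saline 6) for Gucy2f, from -1.16 (without Saline 6) to -0.12 (without Saline 1) for Cnga3, from -0.78 (without IL-27 10) to -0.24 (without IL-27 5) for Cngb1 and from -0.58 (without Saline 2) to -0.19 (without Saline 6) for Slc24a1. Cnga3 was below the filter in rods alone, at 1.03 to 3.21 CPM there, and passed here through its cone counts. Its difference therefore rests on few rod UMIs. The cone levels of Cnga1, Cngb1, Gucy2f and Slc24a1 are not separated from rod RNA. Nor are the rod levels of Cngb3, Slc24a2 and Cnga3 separated from cone RNA. The part of such RNA in these differences was not tested. Without doublet removal the difference was -0.18 for Gucy2f. Which members had an unadjusted p below 0.05 by edgeR changed with the setting. They were Cnga1, Cngb1, Gucy2f and Slc24a1 without a filter on low counts, and Cnga1 and Slc24a1 with all retained nuclei. Without doublet removal it was Slc24a2 alone, and with a filter of 50 counts no member. The share of all genes below 0.05 is given for the main setting only.

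In the other cell types, too, no member passed. In BC, where 0% of 14967 genes passed, 9 members were tested and their log2FC ran from -0.21 to 0.12, with Cngb3 at 327, 338 and 311 CPM in Saline 1, 2 and 6 and 383, 324 and 244 CPM in IL-27 4, 5 and 10 (-0.018 ± 0.13). In AC (0.00602% of 16609 genes passed) the 9 members tested ran from -0.24 to 0.22, and in RGC (0% of 13795) the 8 tested from -0.48 to 0.38. In HC (0% of 7672) 2 were tested, Slc24a2 at -0.041 ± 0.10 and Guca1a at -1.07 ± 0.51, the latter on 43 UMIs. HC held Slc24a2 at 751, 733 and 687 CPM with saline and 793, 680.3 and 633 CPM with IL-27, with the groups overlapping. Muller glia had 9 members tested where 0.0369% of 13548 genes passed, among them Gucy2f at 0.19 ± 0.18 and Cngb3 at 0.68 ± 0.35. In microglia (0% of 8374) 6 were tested, all with a negative log2FC. There Guca1b, at -0.87 ± 0.41 on 64 UMIs, was the 1 member of any type with an unadjusted p below 0.05 (edgeR, adjusted p = 0.999), where 3.26% of all genes tested in microglia were. Its level was 6.12% of that in rods, inside the range of 3.15 to 14.4% for the 4 rod markers in microglia. Of these, Gnat1, Pde6a and Sag had lower means with IL-27 too (61.1 against 85.2, 36.1 against 42.1 and 239 against 261 CPM) and Nrl a higher one (44.8 against 39.3 CPM). The part of rod RNA in the member values was not tested beyond the fit with the rod marker level in AC as a covariate. No member was called by that fit. In astrocytes, endothelial cells and pericytes no member passed the filter on counts.

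The other genes of the light response were followed in 2 lists, a cascade list of 22 genes from opsins to the arrestins and a partner list of 24 genes of related channels, cyclases, exchangers, calcium pumps, calmodulins and disc proteins. By edgeR none of either list passed an adjusted p of 0.05 in rods or cones. In rods all 22 cascade genes were tested, 10 with a positive and 12 with a negative log2FC (median -0.086 against 0.0028 for all genes). The smallest unadjusted p values belonged to cone genes, Opn1sw, the short wavelength opsin, at -0.74 ± 0.31, and Pde6c, the cone phosphodiesterase, at 0.55 ± 0.22 (edgeR, adjusted p = 0.9999 for both). Their levels in rods were 5.44 and 1.001% of those in cones, and the part of cone RNA in them was not tested. With a library left out Opn1sw ran from -1.15 (without IL-27 4) to -0.46 (without IL-27 5) and Pde6c from 0.33 (without Saline 2) to 0.70 (without Saline 1). Next were Gngt1, the gamma subunit of rod transducin, at -0.28 ± 0.15, and Gnb5, a partner of the regulator Rgs9, at 0.18 ± 0.11.

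In cones 17 of the 22 cascade genes had a negative and 5 a positive log2FC (median -0.14 against -0.00022 for all genes). Pde6b, a rod phosphodiesterase subunit and the gene that carries the rd10 allele, was 81.5, 122 and 133 CPM in Saline 1, 2 and 6 and 52.8, 49.4 and 85.0 CPM in IL-27 4, 5 and 10. The groups overlapped, and the log2FC was -0.85 ± 0.20 (edgeR, unadjusted p = 0.00032, adjusted p = 0.998). Pdc, or phosducin, which binds the transducin beta and gamma subunits, did not overlap between groups, at 418, 401 and 445 CPM with saline and 357, 232 and 348 CPM with IL-27 (-0.43 ± 0.14, adjusted p = 0.999 by edgeR). Of the 22 cascade genes in cones 2 had all IL-27 libraries below all Saline libraries and 0 had all above, where 4.8% and 4.17% of all genes had. Without IL-27 5 the log2FC was -0.72 for Pde6b and -0.26 for Pdc. With an unadjusted p below 0.05 by edgeR were 6 cascade genes of 22, all negative, where 3.61% of all genes in cones were, and besides Pde6b and Pdc these were Gnat1, Gnb1, Pde6a and Rgs9bp, named after their values were seen. Gnat1, Pde6a and Pde6b are rod genes, and Pdc was among the rod markers. The part of rod RNA in the cone values of the 6 cascade genes was not tested beyond the fit with the rod marker level in AC as a covariate. That fit called no gene of the 2 lists in rods or cones (smallest edgeR adjusted p = 0.57). The genes with the smallest p on the positive side were Opn1mw, the medium wavelength opsin, at 0.18 ± 0.16, and Gnb5, at 0.15 ± 0.14.

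Of the 24 partners 18 passed the filter in rods, 5 with a positive and 13 with a negative log2FC (median -0.079), and 17 in cones, 7 positive and 10 negative (median -0.042). In rods these were led by the calmodulin genes Calm2 at -0.24 ± 0.13 and Calm3 at -0.23 ± 0.13, and on the positive side Slc8a1, a sodium and calcium exchanger, was at 0.18 ± 0.17. In cones Rd3, which holds the cyclases in check, was 44.6, 45.4 and 41.6 CPM in Saline 1, 2 and 6 and 50.2, 55.3 and 66.9 CPM in IL-27 4, 5 and 10, with no overlap (0.38 ± 0.17, edgeR adjusted p = 0.999), and Slc24a4, another exchanger of the same family, did not overlap either (0.18 ± 0.12). In all, 3 of the 17 partners tested in cones had all IL-27 libraries above all Saline libraries and 1 had all below, where 4.17% and 4.8% of all genes had. Gucy1b1, a subunit of the soluble cyclase, was at -0.67 ± 0.27. Cnga2 and Gucy2d, the channel subunit and the cyclase of olfactory neurons, had no UMI in the summed rods or cones.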

How the data were processed

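The deposited values are UMI counts per barcode and gene, which the authors made with Cell Ranger and deposited without normalization (version 9.0.1 in the study's methods, 8.0.1 in the file headers). Sequencing depth was 36678332 to 48260748 UMIs per library. Kept were barcodes of more than 500 UMIs and 200 or more genes, with mitochondrial reads below 5%, and 4017 doublets removed with Scrublet scores (scanpy 1.11.5). Nuclei were clustered (2000 variable genes, 25 components, Louvain at 0.25, igraph 0.11.9) without the 10 genes and named by at least 3 markers. A cluster led by Fbln1, set apart after its genes were seen, and mixed or unnamed clusters were left out. UMIs were summed per library and cell type, without nuclei beyond 2 median absolute deviations, filtered (filterByExpr, 10 counts) and tested by the quasi-likelihood method of edgeR 4.0.16 (R 4.3.3) after TMM scaling. Within a cell type, p-values were adjusted over all genes by Benjamini-Hochberg, with a threshold of 0.05. Standard errors come from the log2FC and its F value. The fits were tested on simulated data. Named genes are all 10 members in rods and cones, in other types those past the filter or with at least 0.25 of their highest level, up to 2 genes per list and direction with the smallest unadjusted p, and 2 genes most like each member by log2(CPM + 1) among genes at 5 CPM or more. Some genes that this rule or the marker lists give are not reported here, and the 4 rod markers set beside levels outside rods are those that remain. The members and lists were chosen with earlier results of these data known. Alternatives were DESeq2 1.42.0, its size factors, library totals, no filter or 50 counts, all nuclei, no doublet removal, 1% mitochondrial counts, resolution 0.5, rod RNA as a covariate and each library left out. Of the gene identifiers 99.6% were in GENCODE M21.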

Additional observations from a re-analysis of the deposited data

How the results depend on the processing

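No member passed the test in rods, cones or the other cell types, nor in the difference between rods and cones, under any of the 10 other settings run (6 of them for the difference) or with any library left out (0 members in each, edgeR or DESeq2). Of the lists of pathway genes 2 were called without a filter on low counts, Opn1sw in rods (log2FC -0.74, adjusted p = 0.012) and Pde6b in cones (-0.85, adjusted p = 0.00018), and the cause was not tested. With a library left out 0 to 1 were called, Arr3 in cones at -0.87 (edgeR adjusted p = 0.023) without IL-27 4. That library held the most Arr3 UMIs in cones, 11282 of 45073. The share of all genes called under these settings is not given. The single log2FC of members kept their sign in 182 values of other settings and 104 with a library left out and changed it in 6 and 10. The 6 were, with all retained nuclei, Cngb3 (-0.052), Gucy2e (-0.00075) and Gucy2f (0.014) in rods and Cngb3 (0.049) in cones, and with 1% mitochondrial counts Gucy2f (0.0073) and Slc24a2 (0.10) in rods. With a library left out the range in rods was -0.053 to 0.047 for Cngb1, -0.026 to 0.50 for Cngb3, -0.048 to 0.068 for Gucy2e, -0.082 to 0.093 for Gucy2f and -0.29 to 0.060 for Guca1a, and in cones -0.30 to 0.16 for Cngb3. The difference in rod share ran from 1.4 to 10.1 percentage points and that in cone share from -0.112 to 0.865, turning negative without IL-27 4. No paired analysis was possible because the groups share no replicate numbers. Low counts limit Cnga3 in rods and most members outside photoreceptors.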
